A study of Mus musculus with 168 samples.

Results

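The thalamus block of the normal adult mouse brain was compared with 6 other regions dissected from sham-treated mice, with the question which transcripts marked it before any hypoxia. Its members were the arrays labelled thalamus at time point 0hr, 3 of the 21 sham arrays, and the other 18 sham arrays came from cerebral cortex, hippocampus, striatum, midbrain, pons and medulla, and cerebellum, with 3 of each. All animals were male C57BL/6 mice aged 8 to 9 weeks, with no transgene or deletion in any group. Sham mice sat for 3 h in the hypoxia chambers in room air and then spent 24 h in their home cages. The remaining 147 arrays of the series, used here only to measure the same differences again, came from 21 mice killed after 1 h or 3 h of 8% oxygen (H1 and H3) or at 1, 3, 6, 12 or 24 h after return to air (R1 to R24). Each array held RNA of a whole dissected block, and the borders of the thalamus block were not given in the sources used here.

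The thalamus relays sensory and motor signals to the cerebral cortex through glutamatergic neurons that load their vesicles with the transporter encoded by Slc17a6. Together with the habenula above it and the hypothalamus below it, it forms the diencephalon, and it borders the midbrain behind. Transcription factors such as Tcf7l2 and Gbx2 set the identity of its relay neurons in development, and several of these genes remain active in the adult.

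The level of a probe set, the group of short probes that reads 1 transcript, was a linear fluorescence intensity, and differences were taken on the log2(intensity + 16) scale. A probe set was called higher or lower when the moderated limma test gave an adjusted p under 0.05 and the difference from the mean of the other 6 regions was at least 1.5-fold on that scale. It was called above each region, or below each region, when all 6 separate comparisons passed the same rule. A gene was read through its brightest probe set that names no other gene, which gave 18193 genes. The gene lists used below were chosen with earlier results of these data known, so their counts are no independent evidence. The offset of 16 makes folds of dim probe sets too small.

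The block carried more than thalamus. Pmch, which encodes the hypothalamic feeding peptide MCH, read 2770, 2670 and 2570 in the 3 thalamus arrays and 8.06 at the lowest, 32.2 at the median and 64.1 at the highest among the other 18 arrays, so that the groups were far apart. Its log2 difference of 5.80 (SE 0.19, adjusted p = 6.3e-11, limma) led all probe sets tested. Avp, the gene of the antidiuretic hormone vasopressin, read 1860, 1500 and 1030 against 15.1 to 52.2 (median 27.4), a log2 difference of 5.07 (SE 0.18, adjusted p = 2.4e-10). Hcrt, which encodes the wake-promoting orexins, read 891, 777 and 855 against 37.7 to 64.5 (median 57.6), a log2 difference of 3.62 (SE 0.11). None of these 3 genes overlapped with any other region, and each is known for neurons of the hypothalamus. Of 12 measured hypothalamus markers 10 were higher and 6 were above each region, beside 2.86% and 0.39% of all genes. Their summed intensity was 7970 to 9000 in the thalamus arrays and 597 to 2340 in the others. Sim1, a factor of hypothalamic neurosecretory cells, was not called on its brightest probe set (log2 difference 0.01, SE 0.11, adjusted p = 0.97), while its other probe set was above each region (1.46, SE 0.22), so the call for Sim1 depends on the probe set.

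Habenula genes were present in the same block. Tac2, which encodes neurokinin B, read 439, 415 and 515 in thalamus and 1.84 to 177 (median 50.9) elsewhere, a log2 difference of 2.81 (SE 0.14, adjusted p = 3.4e-09). Gpr151, an orphan receptor of habenula neurons, read 126, 137 and 175 against 1.29 to 26.5 (median 8.86), a log2 difference of 2.66 (SE 0.16). Both genes were highest in all 3 thalamus arrays, with striatum next. All 7 habenula markers were higher, 2 of them above each region, beside 2.86% and 0.39% of all genes. Their summed intensity was 1280 to 1490 in thalamus and 230 to 743 in the other arrays. The label thalamus is therefore read here as a diencephalic block, and how much of any difference came from hypothalamus or habenula was not tested. In whole-tissue RNA, more cells of a type and more RNA per cell of that type cannot be told apart.

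**Figure D1:**
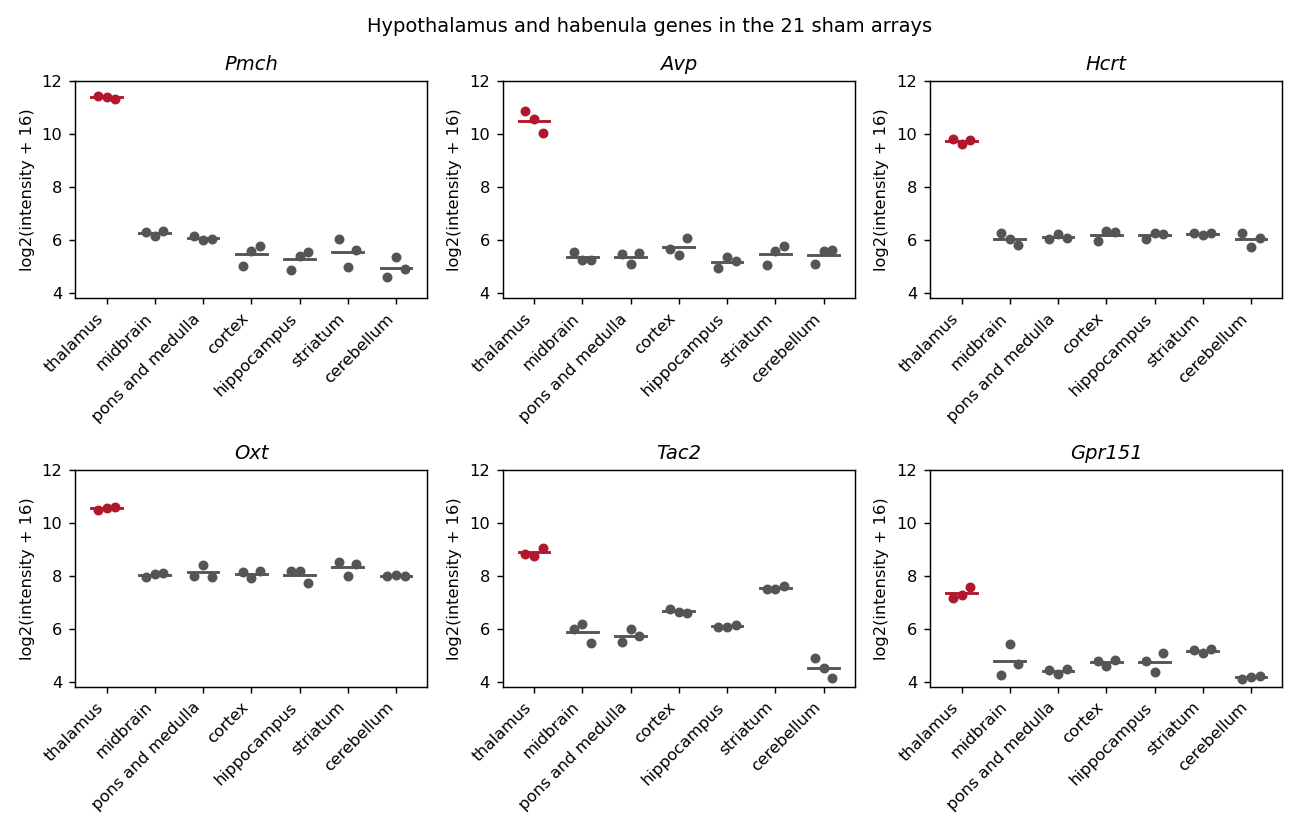
Levels of 6 genes known for hypothalamus (Pmch, Avp, Hcrt, Oxt) or habenula (Tac2, Gpr151) in the 21 sham arrays, by region. The vertical axis is log2(intensity + 16), each point is 1 array, bars are means of 3 arrays, and thalamus is in red. All 3 thalamus arrays lie above all 18 others for each of the 6 genes.

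Against the mean of the other regions, 907 probe sets were higher in thalamus, 2.01% of the 45037 tested, and 780 were lower, 1.73%. Above each of the 6 regions were 121 probe sets (0.269%), which stood for 71 genes by the brightest probe set (0.39% of genes), and below each were 20 probe sets (0.0444%) and 12 genes (0.066%). Of the 121 probe sets, 120 had all 3 thalamus arrays above all 18 others, and for the 20 below each region all 3 lay under all 18. The same arrays made the calls, so this separation is a description only. Over all probe sets tested, 1.03% were so separated upward and 0.38% downward. For 37 of the 71 genes the thalamus mean was at least 2-fold above that of every other region. The next highest region was midbrain for 37 of the 71 genes, pons and medulla for 10, striatum for 9, cortex for 7, cerebellum for 6 and hippocampus for 2.

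Among the 20 genes with the largest differences of the 71, 9 were on the 2 lists of thalamus markers, 5 on the hypothalamus list and 2 on the habenula list. With lists chosen after earlier results were known, these counts are a description only. Synpo2, an actin-binding synaptopodin relative, read 714, 592 and 674 in thalamus and 15.2 to 212 (median 37.4) in the others, and its log2 difference was 3.24 (SE 0.12, adjusted p = 2.5e-10). Prkcd, the gene of protein kinase C delta and a classical stain for relay nuclei, read 2440, 2110 and 2380 against 113 to 827 (median 216), with a log2 difference of 3.02 (SE 0.09, adjusted p = 4.7e-11). For both, all 3 thalamus arrays stood above every other array, and midbrain came next, at a mean of 197 for Synpo2 and 802 for Prkcd.

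Tnnt1, a troponin T of slow muscle that thalamic neurons also transcribe, read 335, 259 and 340 against 1.99 to 165 (median 19.1). Its log2 difference was 3.05 (SE 0.20), although against midbrain alone it was 1.13 (adjusted p = 0.022). Plekhg1 read 1210, 1060 and 1140 against 75.8 to 405 (median 124), a log2 difference of 2.89 (SE 0.13). Both genes kept thalamus apart from midbrain in every array. Ramp3, which escorts calcitonin-family receptors to the membrane, read 955, 915 and 883 against 44.9 to 267 (median 122), a log2 difference of 2.71 (SE 0.14). Slitrk6, a synaptic adhesion protein, read 178, 164 and 207 against 1.12 to 73.5 (median 11.6), a log2 difference of 2.70 (SE 0.14).

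**Figure D2:**
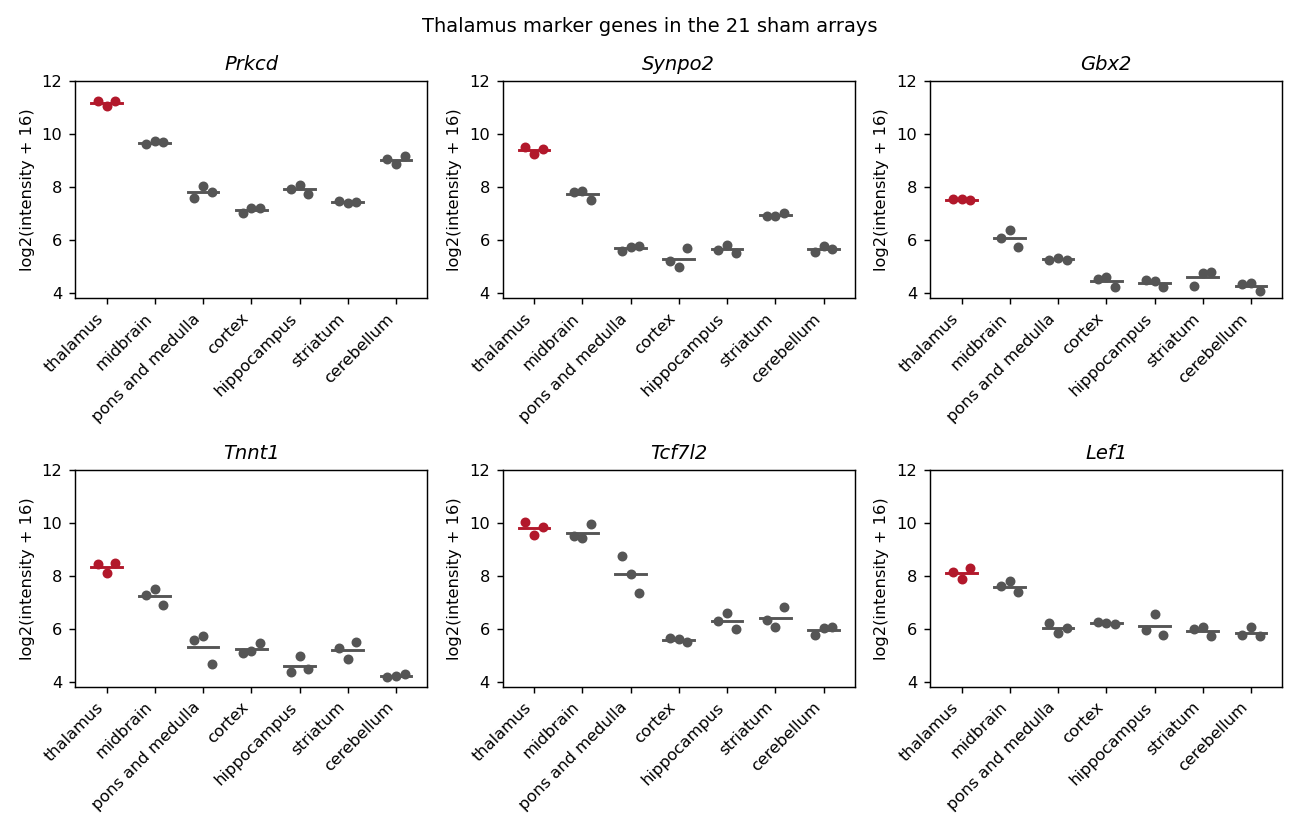
Levels of 6 thalamus markers in the 21 sham arrays, by region. The vertical axis is log2(intensity + 16), each point is 1 array, bars are means of 3 arrays, and thalamus is in red. Prkcd, Synpo2, Gbx2 and Tnnt1 lie above every other array in thalamus, Lef1 lies close above midbrain, and Tcf7l2 overlaps with midbrain.

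The other leading genes were mixed. Rgs16, which shortens G protein signals (log2 difference 2.41, SE 0.15), and Amotl1, a cell junction protein (2.08, SE 0.08), were thalamus markers, and Trh, the thyrotropin-releasing hormone gene (2.65, SE 0.19), and Oxt, the oxytocin gene (2.44, SE 0.12), were hypothalamus markers. The Oxt probe set also read 197 to 351 in the other 18 arrays, so its thalamus values of 1420, 1490 and 1510 stood on a high floor. Irs4, an insulin receptor substrate, read 340, 328 and 370 against 11.6 to 125 (log2 difference 2.53, SE 0.16). None of the lists held Irs4. The same was true of Vav3, a guanine nucleotide exchange factor (2.22, SE 0.10), and Tafa4, a secreted neurokine (2.20, SE 0.12). Kcnc2, which encodes the fast delayed-rectifier channel Kv3.2, read 1140, 992 and 1140 against 19.6 to 679 (median 363) and differed from midbrain by 0.72 on the log2 scale (adjusted p = 0.017).

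Of the 71 genes, 50 were on no list. Chosen after their values were seen, several of these are known from the hypothalamus. Hdc, the histamine-forming enzyme, had a log2 difference of 1.64 (SE 0.10), and Fezf1, a factor of the ventromedial hypothalamus, had 1.73 (SE 0.18). Nkx2-4, a ventral forebrain factor, read 73.3, 56.5 and 48.2 against 3.81 to 15.6, and Ghrh, the growth hormone-releasing hormone gene, 49.2, 31.9 and 39.9 against 1.64 to 15.6, so that the thalamus arrays of both were separate but dim. Their log2 differences were 1.71 (SE 0.12) and 1.32 (SE 0.14).

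Because Tcf7l2 and Lef1, both binding the TCF/LEF motif, were higher in the block, the promoters of the leading genes were searched for CTTTGAT and CTTTGAA on both strands. RefSeq promoters of 300 bases (250 before and 50 after the start, GRCm38.p6) were found for 56 of the 71 genes. The set searched left out a whole chromosome, and it held no promoter of Gpr151. A match was held by 5 of the 76 promoters of the 56 genes (6.58%) and by 2842 of the 32851 promoters searched (8.65%). The share was thus no higher than the background. Of the 20 leading genes, Pmch and Tac2 held a match, and their promoters are shown as the leading hypothalamus and habenula genes of the block, with the match in capitals (in Tac2 it lies on the opposite strand). They lie on chr10:88090822-88091121 and chr10:127724228-127724527, both on the plus strand. A match is a description of letters and not a binding site.
Pmch: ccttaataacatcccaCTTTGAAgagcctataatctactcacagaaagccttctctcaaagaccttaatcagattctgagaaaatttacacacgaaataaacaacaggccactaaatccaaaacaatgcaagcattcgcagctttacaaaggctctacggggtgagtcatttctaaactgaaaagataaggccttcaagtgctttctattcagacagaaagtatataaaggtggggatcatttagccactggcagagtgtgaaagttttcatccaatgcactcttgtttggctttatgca
Tac2: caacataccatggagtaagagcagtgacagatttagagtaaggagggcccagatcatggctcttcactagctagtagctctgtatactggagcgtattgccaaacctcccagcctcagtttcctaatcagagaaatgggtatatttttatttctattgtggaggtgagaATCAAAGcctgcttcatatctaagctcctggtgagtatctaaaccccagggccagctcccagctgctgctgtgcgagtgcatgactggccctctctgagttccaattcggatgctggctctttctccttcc

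Most transcription factors of the thalamus were higher than the mean of the other regions, and few were called above midbrain. Of 12 measured, 10 were higher than the mean of the other regions, with a median log2 difference of 1.83 over the 12 beside 0.01 over all genes, but by the brightest probe set only Gbx2 was above each region. On any probe set 3 of the 12 were, with Lef1 and Rora added. Over all genes 2.86% were higher. This list was chosen with earlier results known, so its counts are a description only. Gbx2, needed for relay neurons to form and project, read 170, 169 and 165 in thalamus and 1.05 to 66.5 (median 7.70) elsewhere. No array of another region reached it, and its log2 difference was 2.69 (SE 0.11), with 1.46 against midbrain (adjusted p = 1.5e-05).

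Tcf7l2, a transcriptional partner of beta-catenin, read 1020, 725 and 898 in thalamus and 29.2 to 976 (median 63.1) in the others. Its log2 difference was 2.82 (SE 0.22, adjusted p = 2.5e-07). The thalamus and midbrain arrays overlapped, and against midbrain, at a mean of 783, the difference was 0.18 (adjusted p = 0.88). Shox2, a homeobox factor, read 958, 832 and 848 against 1.75 to 643 (median 18). It had the largest log2 difference of the factors, 3.67 (SE 0.34), but that against midbrain, 0.73, had an adjusted p of 0.54. Lef1 read 269, 221 and 299 against 36.7 to 204 (median 50.9), a log2 difference of 1.83 (SE 0.13), and 0.53 against midbrain (adjusted p = 0.15). All 3 Lef1 values were above those of every other array, the nearest being midbrain. Another Lef1 probe set was above each region, with a log2 difference of 2.04 (SE 0.19) and 0.95 against midbrain (adjusted p = 0.045).

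The remaining factors differed in which region came nearest. Rora, a nuclear receptor of both relay and Purkinje neurons, read 3250, 2310 and 2710 in thalamus against 333 to 2160 (median 641), and its log2 difference of 1.85 (SE 0.11) became 0.39 against cerebellum alone (adjusted p = 0.053). Another Rora probe set was above each region (1.69, SE 0.15), with 0.79 against cerebellum (adjusted p = 0.008). Zic1, a zinc-finger factor, read 2220, 2350 and 2160 against a median of 513 and a highest value of 3740. Its log2 difference was 1.83 (SE 0.12) from the mean and −0.63 from cerebellum (adjusted p = 0.0062), so cerebellum was its highest region. Zic4 had a log2 difference of 0.94 (SE 0.15) and was likewise highest in cerebellum. Foxp2, a forkhead factor, had 0.99 (SE 0.07), with striatum highest. Zfhx3 (1.90, SE 0.07) and Lhx9 (1.45, SE 0.17) both differed from midbrain by 0.23, which did not pass the test. Esrrg (0.12, SE 0.09, adjusted p = 0.50) and Lhx2 (−0.29, SE 0.11, adjusted p = 0.13) were not called, and Lhx2 read 109, 91.6 and 95.5 in thalamus against means of 431 in cortex and 482 in hippocampus.

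**Figure D3:**
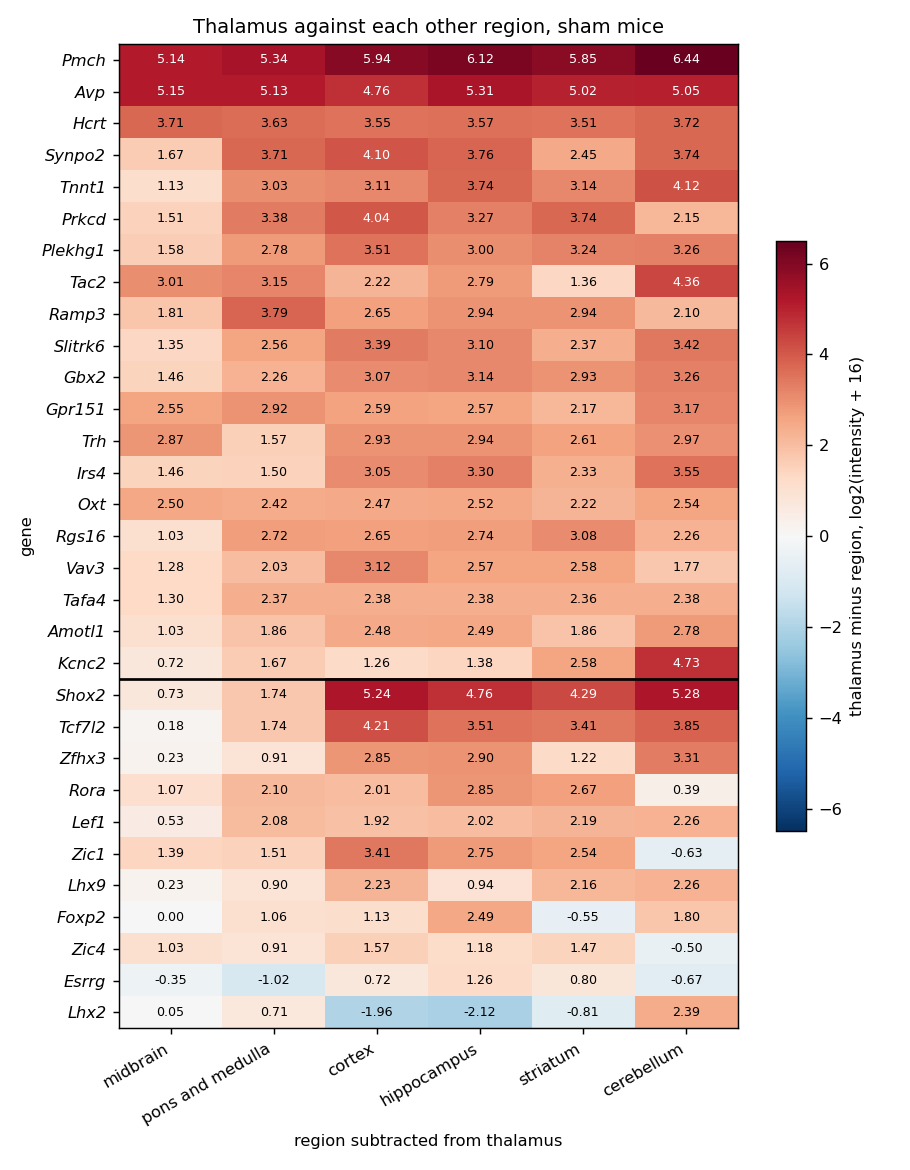
Thalamus minus each other region for the 20 genes with the largest differences among those above each region (upper block) and for the other 11 thalamus transcription factors (lower block). Colour and number give the mean log2(intensity + 16) of the 3 thalamus arrays minus that of the 3 arrays of the region named below. Hypothalamic genes such as Avp and Hcrt differ by similar amounts from all regions, while many of the transcription factors differ least from midbrain or cerebellum, Foxp2 is highest in striatum and Lhx2 lies below cortex and hippocampus.

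Most signalling and structural markers were also called above midbrain. All 20 were higher than the mean of the other regions, with a median log2 difference of 1.80, and 11 were above each region by the brightest probe set. Over all genes 2.86% were higher and 0.39% above each region. This list too was chosen with earlier results known, so its counts are a description only. Against midbrain 15 of the 20 were higher, beside 4 of the 12 transcription factors and 288 of all 18193 genes. Adarb1, an RNA editing deaminase, had a log2 difference of 1.40 (SE 0.10), Rab37, a vesicle GTPase, 1.80 (SE 0.12), and Ptpn3, a tyrosine phosphatase, 1.81 (SE 0.12), and all were above each region. Ptpn3 read 869, 785 and 885 against 95.1 to 399 (median 247), with cortex and not midbrain next.

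Slc17a6, the vesicular glutamate transporter of relay neurons, read 1810, 1640 and 1850 in thalamus and 40.2 to 1560 (median 172) in the others. Its log2 difference was 2.56 (SE 0.24, adjusted p = 2.6e-06). The 3 thalamus arrays were the highest of all, yet the differences from midbrain (0.22, adjusted p = 0.86) and from pons and medulla (0.45, adjusted p = 0.51) did not pass the test. Ntng1, the netrin-G1 gene of thalamocortical axons, had a log2 difference of 0.89 (SE 0.06) on its brightest probe set, and 0.18 against midbrain. On 3 other probe sets Ntng1 was above each region, with log2 differences of 2.66 (SE 0.12), 2.31 (SE 0.11) and 1.59 (SE 0.17) and of 1.16, 1.27 and 1.16 against midbrain, so its relation to midbrain depends on the probe set.

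Calb2, the gene of the calcium buffer calretinin, had 1.66 (SE 0.23), Patj, a tight junction scaffold, 1.74 (SE 0.10), and Kitl, the ligand of the receptor Kit, 1.04 (SE 0.08), and these 3 had their highest mean in cerebellum. Nexn, an actin-binding protein (0.84, SE 0.12), and Prkch, protein kinase C eta (1.36, SE 0.11), were highest in striatum. Vipr2, a receptor for the peptide VIP, read 99.6, 70.1 and 77.1 against 3.11 to 59.4, and Wnt3, a Wnt ligand, 38.9, 31.9 and 42.5 against 0.69 to 27.9. Both were apart from all other arrays but dim, with log2 differences of 1.25 (SE 0.23) and 0.94 (SE 0.16).

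Midbrain was the region most like thalamus. Over all probe sets, the mean log2 levels of thalamus correlated across probe sets with r of 0.987 for midbrain, 0.980 for pons and medulla, 0.969 for hippocampus, 0.966 for cortex, 0.962 for striatum and 0.947 for cerebellum, given as a description, since probe sets are not independent and share the same arrays. Against midbrain 568 probe sets were higher (1.26%) and 347 lower (0.77%), while against cerebellum, the least like region, 3027 were higher (6.72%) and 3219 lower (7.15%). The shares higher and lower were 2.58% and 2.06% against pons and medulla, 3.79% and 3.99% against hippocampus, 4.39% and 4.39% against cortex, and 4.7% and 5.23% against striatum. The genes most above midbrain were Pmch (log2 difference 5.14), Avp (5.15), Hcrt (3.71), Tac2 (3.01) and Trh (2.87), none of which is a thalamus marker.

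The genes most below midbrain included those of its monoamine and GABA neurons. Slc6a3, the dopamine transporter, read 27.7, 23.1 and 33.6 in thalamus and had a log2 difference of −3.86 from midbrain (adjusted p = 6.3e-07). Gata3, a factor of midbrain GABA neurons, had −2.59, and its thalamus values of 2.82, 2.09 and 3.94 were near the bottom of the scale. Aldh1a2, a retinoic acid-forming enzyme, had −2.49, Tfap2b, an AP-2 factor, −2.24, and Tph2, the serotonin-forming enzyme, −2.10 (adjusted p = 0.015). Of 7 measured midbrain markers 5 were below midbrain in the thalamus arrays, and so were 5 of 8 meninges and fibroblast markers, whose part in the lower calls was not tested. Of all 18193 genes, 208 were below midbrain.

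The channels known for burst firing differed in part. Over all genes, 2.86% were higher, 2.15% lower and 0.39% above each region. Of 7 measured T-type calcium, HCN and leak potassium channel genes, 3 were higher. None was above each region, which says little at that share. Cacna1g, the T-type channel of relay neurons, read 465, 395 and 378 in thalamus against 49.7 to 554 (median 181), and cerebellum was its highest region. Its log2 difference was 1.06 (SE 0.11, adjusted p = 8.5e-06). Kcnk3, a leak potassium channel, had 0.86 (SE 0.25, adjusted p = 0.038) and Hcn3, a pacemaker channel, 0.78 (SE 0.16). The call of Kcnk3 was lost without the replicate block (adjusted p = 0.059, limma), and its other probe sets, neither of them called, gave 0.22 and −0.21, so its direction depends on the probe set. Kcnk1, the brightest member that was not called, had −0.34 (SE 0.07). Of 19 voltage-gated potassium channel genes 3 were higher, Kcnc2, Kcnip4 (0.78, SE 0.14) and Kcnip1 (0.78, SE 0.15), and 1 was lower, Kcnip2 (−1.57, SE 0.13). Kcnip2, a subunit of transient potassium channels, read 66.6, 44.8 and 88.8 against up to 1490 in the others. Of 10 sodium channel and axon initial segment genes only Scn4b was called (−0.66, SE 0.11), with its highest level in striatum, and Scn2b had 0.16 (SE 0.09, adjusted p = 0.32).

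Receptor genes were higher more often than lower. Of 17 GABA-A and glycine receptor genes, 5 were higher and 1 lower, beside 2.86% and 2.15% of all genes. Gabra4, a subunit of extrasynaptic receptors, read 1200, 1060 and 1180 in thalamus and 144 to 1060 (median 493) elsewhere, a log2 difference of 1.45 (SE 0.07, adjusted p = 2.4e-09), with striatum next. Gabrd, its usual partner, had 1.12 (SE 0.08), but its second probe set gave −0.15, so its direction depends on the probe set. Glra3, a glycine receptor subunit, had 1.02 (SE 0.14) and was highest in midbrain. Gabra6, a subunit of cerebellar granule cells, had −1.35 (SE 0.17), and its values of 25.2, 23.4 and 16.7 were at the level of cortex, hippocampus and striatum. Gabbr1, a GABA-B receptor subunit, was not called on its brightest probe set (0.39, SE 0.06), while another was above each region (0.84, SE 0.11).

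Of 24 glutamate receptor genes 2 were higher, Grin3a (0.81, SE 0.07) and Grin2d (0.65, SE 0.13), both NMDA receptor subunits, and 1 was lower, the AMPA receptor subunit Gria2 (−0.67, SE 0.14). Gria1, another AMPA subunit, had −0.19 (SE 0.09, adjusted p = 0.28). Of 17 cholinergic, serotonin and noradrenaline receptor genes 7 were higher and 3 lower. Both lists stand beside 2.86% higher and 2.15% lower over all genes. Adra1b, an alpha-1 adrenergic receptor, read 94.9, 69.1 and 90.6 against 3.06 to 65.2 (log2 difference 1.39, SE 0.16), apart from every other array. The nicotinic subunit genes Chrna4 (0.97, SE 0.13) and Chrna3 (1.12, SE 0.13) were higher as well. Chrna3 is also a habenula marker. Its second probe set gave −0.10, while a further one was called higher at 1.31. The muscarinic receptor gene Chrm1 had −0.98 (SE 0.07), with 182, 183 and 158 in thalamus against up to 1070.

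Of 26 calcium/calmodulin and cAMP signalling genes 6 were higher, among them Prkcd, Rgs16 and the G protein regulator Rgs4 (1.12, SE 0.08), and 4 lower, and Adcy1, an adenylyl cyclase, was not called (−0.07, SE 0.08). Of 20 calcium-binding and presynaptic genes 4 were higher, with Syt9, a calcium sensor of vesicle fusion, at 494, 442 and 511 against 32.2 to 349 (log2 difference 1.92, SE 0.14), above all other arrays. The 2 lower ones were the calcium sensor Hpca (−1.37, SE 0.05) and Cplx2. Over all genes 2.86% were higher and 2.15% lower. Pvalb, the parvalbumin gene, had 0.17 (SE 0.17, adjusted p = 0.66). Among 6 reticular thalamic nucleus markers, which include Pvalb and the GABA-forming enzyme Gad1 (−0.16, SE 0.06), the endopeptidase gene Ecel1 (1.36, SE 0.10) and the homeobox gene Six3 (1.31, SE 0.19) were higher, and both reached their highest or next highest level in striatum.

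Of 40 measured genes on the list of TCF/LEF factors and Wnt signalling, 8 were higher and 3 lower, beside 2.86% and 2.15% of all genes. Their median log2 difference was 0.08, and by the brightest probe set none was above each region. Wnt9b, a Wnt ligand (log2 difference 1.63, SE 0.19), and Fzd5, a Wnt receptor (1.20, SE 0.14), were among the 71 genes above each region but not on the list, and are named after their values were seen. The second probe set of each was not called, at 0.35 for Wnt9b and 0.01 for Fzd5. Wnt4, a Wnt ligand, read 129, 136 and 147 against 6.08 to 187 (log2 difference 1.15, SE 0.13), with cortex highest. Dkk3, a secreted Dickkopf relative, had −1.28 (SE 0.10). Ctnnb1, the beta-catenin gene, was above all other arrays at 2600, 2500 and 2800 against 1930 to 2330, but its log2 difference of 0.29 (SE 0.06, adjusted p = 0.0056) was under 1.5-fold. Of 32 axon guidance genes 6 were higher and 2 lower, with Ntng1, the ephrin receptor gene Epha8 (0.72, SE 0.14), and on the lower side the adhesion genes Lrrc4 (−0.72, SE 0.13) and Cdh9 (−0.72, SE 0.12) among them, and Cdh2, the N-cadherin gene, had 0.25 (SE 0.06).

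**Figure D4:**
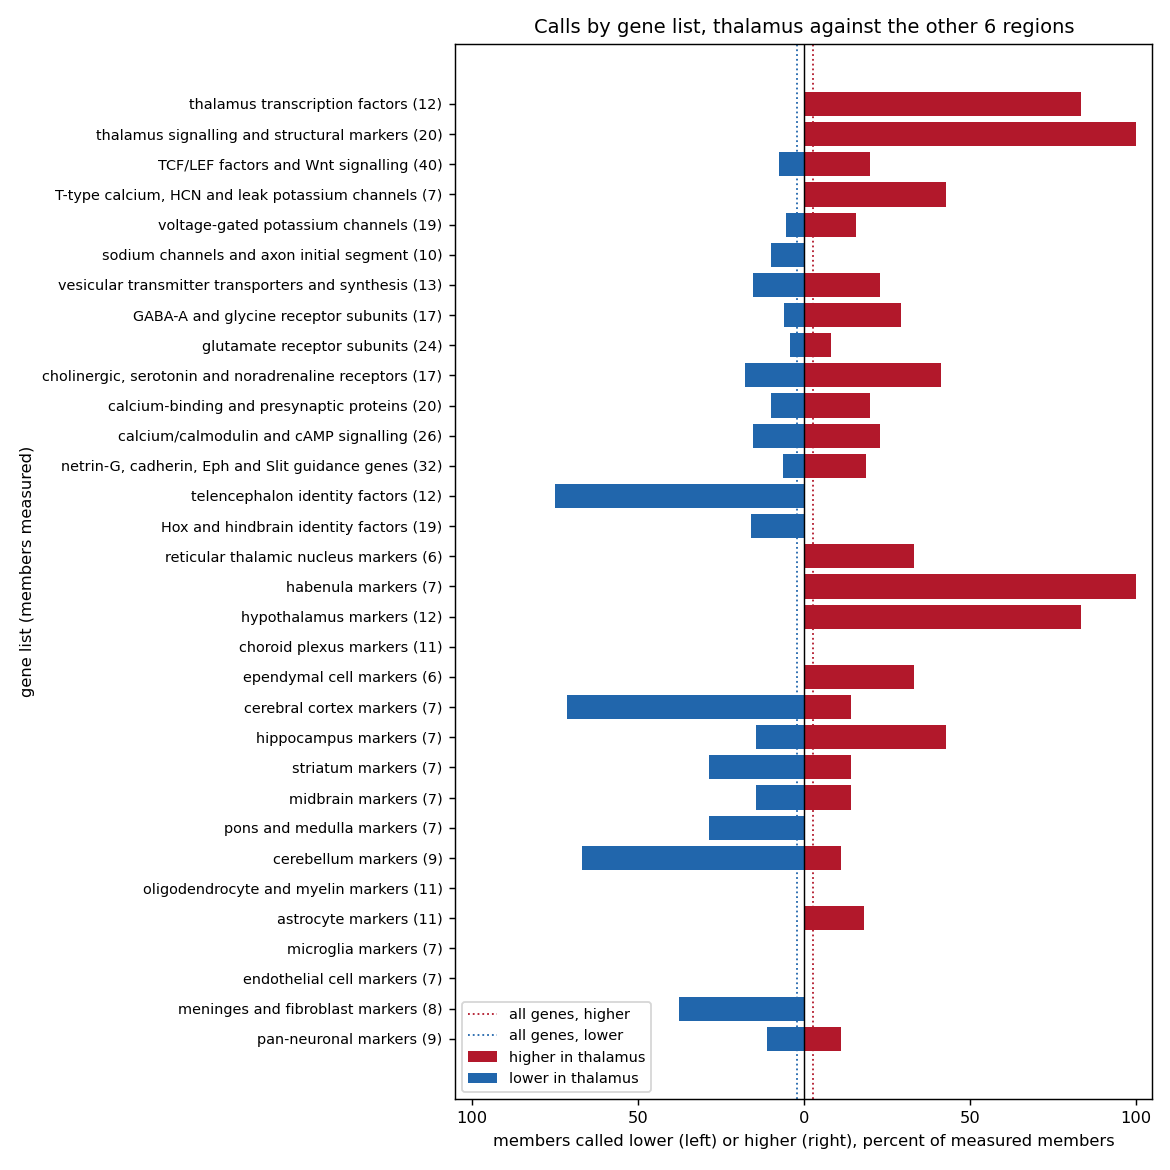
Share of the measured members of each gene list called higher (right, red) or lower (left, blue) in thalamus against the mean of the other 6 regions, in percent, with the number of measured members in brackets. Dotted lines give the shares over all genes, 2.86% higher and 2.15% lower. The thalamus, habenula and hypothalamus lists lie to the right, and the lists of telencephalon factors and cortex and cerebellum markers to the left.

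Telencephalic factors were mostly lower in thalamus. Of 12 measured telencephalon identity factors 9 were lower and none higher than the mean of the other regions, beside 2.15% and 2.86% of all genes. The median log2 difference of these factors was −1.05. Against midbrain alone 3 were higher and 1 lower, and the summed mean intensity was 1211 in thalamus, beside 874 in midbrain, 897 in pons and medulla, and 4123 to 7383 in the other regions. Neurod6, a factor of cortical and hippocampal pyramidal neurons, read 4.92, 12.3 and 6.66 in thalamus and 12.0 to 1060 (median 45.7) elsewhere, a log2 difference of −2.27 (SE 0.14, adjusted p = 4.1e-08). Its thalamus arrays were close to those of midbrain, from which they differed by −0.34. Egr3, an activity-regulated factor, had −1.98 (SE 0.16), Neurod2 −1.72 (SE 0.12), Bcl11b, a factor of striatal and corticospinal neurons, −1.45 (SE 0.17), and Fezf2, a factor of deep-layer neurons, −1.20 (SE 0.13). Mef2c was the exception among bright members at 0.10 (SE 0.08, adjusted p = 0.57). Slc17a7, the glutamate transporter of cortical neurons, read 324, 252 and 308 against 97.4 to 2280 (log2 difference −0.93, SE 0.16).

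Only 12 genes were below each of the 6 regions, and 7 of them had midbrain as the next lowest. Chst15, a chondroitin sulphate sulphotransferase, read 9.70, 44.5 and 28.2 against 69.3 to 422 (median 179), a log2 difference of −2.20 (SE 0.13, adjusted p = 2.8e-08). Caln1, a calcium-binding calneuron, read 332, 387 and 370 against 904 to 2570 (median 1340), a log2 difference of −1.90 (SE 0.08). In both genes the highest thalamus array lay under the lowest of the other 18. Kit, a receptor tyrosine kinase, read 65.3, 65.5 and 72.2 against 140 to 768 (median 179), with −1.65 (SE 0.07), while its ligand gene Kitl was higher. Cplx2, a complexin that clamps vesicle fusion, read 523, 442 and 428 against 706 to 2240 (median 1620), with −1.49 (SE 0.07). Ano3, an anoctamin (−2.05, SE 0.08), Igfbp6, which binds insulin-like growth factors (−1.87, SE 0.12), Cabp1, a calcium-binding protein (−1.46, SE 0.14), and Rbp4, the retinol carrier (−1.40, SE 0.11), followed.

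For Drd1 and Hoxb5 the lower call was lost when a single other region was left out of the mean. For the other genes of this paragraph such values are not given here. Over all genes 2.86% were higher and 2.15% lower. Of 9 cerebellum markers 1 was higher, Cbln1 (1.05, SE 0.16), although its highest level was in cerebellum, and 6 were lower, led by Cbln3 (−1.53, SE 0.13), and Pcp2, a Purkinje cell gene, had −1.51 (SE 0.15). Barhl1 had −1.19 (SE 0.15). Of 7 striatum markers 2 were lower, Ppp1r1b, the DARPP-32 gene (−1.57, SE 0.11), and Drd1, a dopamine receptor (−0.61, SE 0.11), whose log2 difference was 0.19 when striatum was left out of the mean. Among 19 Hox and hindbrain factors none was higher and 3 were lower, En2 (−0.93, SE 0.12), Hoxb5 (−0.66, SE 0.08) and En1 (−0.64, SE 0.17), and that of Hoxb5 was 0.02 without pons and medulla. Slc6a5, the neuronal glycine transporter, read 3.09, 3.01 and 6.55 (−1.59, SE 0.10), with its highest level in pons and medulla.

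Of 7 cortex markers 5 were lower and 1 higher, beside 2.15% and 2.86% of all genes. The lower ones included Lamp5, a membrane protein of cortical neurons (−2.02, SE 0.22), and the higher one was Rorb, a nuclear receptor known from layer 4 of cortex, which read 603, 501 and 486 against 84.8 to 493 (log2 difference 1.33, SE 0.07) and differed from cortex by 0.13. Hippocampus markers gave 3 higher calls of 7, Prox1 (0.94, SE 0.14), C1ql2 (0.87, SE 0.19) and Iyd (0.70, SE 0.11), and 1 lower, Lct (−0.71, SE 0.13). Tac1, the substance P gene of the striatum list, had 1.05 (SE 0.14), and Foxa1, of the midbrain list, 0.66 (SE 0.18).

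Non-neuronal markers are set beside the shares over all genes, 2.86% higher and 2.15% lower. None of 11 myelin, 7 microglia or 7 endothelial genes was called, which says little at these shares. Mbp, the myelin basic protein gene, had 0.04 (SE 0.07), Csf1r −0.03 (SE 0.07) and Slco1c1 −0.14 (SE 0.13). Of 11 astrocyte genes 2 were higher. Agt, the angiotensinogen gene, read 776, 923 and 976 against 4.75 to 1040 (median 219), a log2 difference of 2.15 (SE 0.15, adjusted p = 9.3e-08), and Slc6a11, a GABA transporter, had 1.22 (SE 0.17). Both had higher means in midbrain (Agt −0.10 and Slc6a11 −0.38 against it), and neither difference from midbrain passed the test. Aldoc had 0.09 (SE 0.07). Of 6 ependymal genes Tmem212 (0.95, SE 0.19) and Ccdc153 (0.69, SE 0.10) were higher.

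Choroid plexus markers varied widely between arrays. The summed intensity of 11 choroid plexus genes was 656 to 881 in thalamus and 429 to 6860 in the other arrays. Ttr, the transthyretin gene of choroid plexus, read 505, 477 and 277 against 68.5 to 5110 (median 2260), and its log2 difference of −1.60 (SE 0.91) was not called (adjusted p = 0.36). Of 8 meninges and fibroblast genes 3 were lower, Slc13a4 (−1.13, SE 0.30), Igf2 (−0.91, SE 0.13) and Dcn (−0.74, SE 0.11, but 0.12 on its second probe set), and their part in any lower call was not tested. Among 9 pan-neuronal genes Nefh, a neurofilament gene, was higher (0.68, SE 0.12) and Rbfox3, the NeuN gene, lower (−0.70, SE 0.07), and Snap25 had −0.10 (SE 0.06). The lists of this paragraph too stand beside 2.86% higher and 2.15% lower over all genes.

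The differences were present again in the 21 mice not used for the calls. Taken within each mouse, thalamus minus the mean of the other regions was called higher for 779 probe sets (1.73%) and lower for 654 (1.45%), and of the sham calls 710 of 907 higher and 563 of 780 lower ones were called in the same direction, with 0 in the opposite one. Of the 121 probe sets above each region, 120 were called higher in the later mice and all 121 had their highest mean in thalamus, and the remaining 1, a probe set of Cacna2d4, had 0.54 on the log2 scale against 0.84 in sham mice. Of the 20 below each region 19 were called lower again, and a probe set of Slc25a30 was not (−0.67 in sham, −0.004 in later mice).

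Over the 8 conditions the difference itself was not called as changed for any probe set by limma's F-test, with 0 of 45037 at an adjusted p under 0.05 and 2473 (5.49%) at an unadjusted p under 0.05. Of the 121 probe sets above each region 16 had an unadjusted p under 0.05. The 5 genes with the smallest p among those above each region were Sntb1 (unadjusted p = 0.001, adjusted p = 0.67), Sh3d19 (0.003 and 0.75), Pitpnc1 (0.017 and 0.86), Xylt2 (0.026 and 0.88) and Pmch (0.042 and 0.90). Pmch had mean log2 differences of 5.57 to 6.00 over the 7 later conditions, beside 5.80 in sham mice.

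The single arrays of the later mice varied by gene. In the 21 later thalamus arrays Prkcd ran from 1820 to 2510, Synpo2 from 506 to 662 and Tcf7l2 from 544 to 1220. Among the hypothalamus and habenula genes, Pmch ran from 2080 to 2980, Avp from 641 to 2010 and Tac2 from 195 to 517. In the 144 arrays of the other regions, sham ones included, Avp reached 434, in striatum. The other highest values were in midbrain, 1450 for Prkcd, 340 for Synpo2, 982 for Tcf7l2, 66.5 for Pmch, 215 for Tac2 and 86.4 for Gpr151. For Tcf7l2, Tac2 and Gpr151 these were above the lowest later thalamus array. In replicate 2 at H1 the 7 habenula markers summed to 468, beside 906 to 1489 in the other 23 thalamus arrays. Gpr151 read 31.4 there against 82.6 to 195, and Chrna3 24.6 against 56.5 to 106, so both were below all other thalamus arrays. The thalamus transcription factors of the same array summed to 6913, beside 7854 to 9730 in the other 23, and the signalling and structural markers to 11134, beside 12762 to 14575, so both were also the lowest. Its hypothalamus markers summed to 8445, beside 5690 to 9953. Its choroid plexus markers summed to 5998, beside 495 to 7114, and the part of these in its low habenula sum was not tested.

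**Figure D5:**
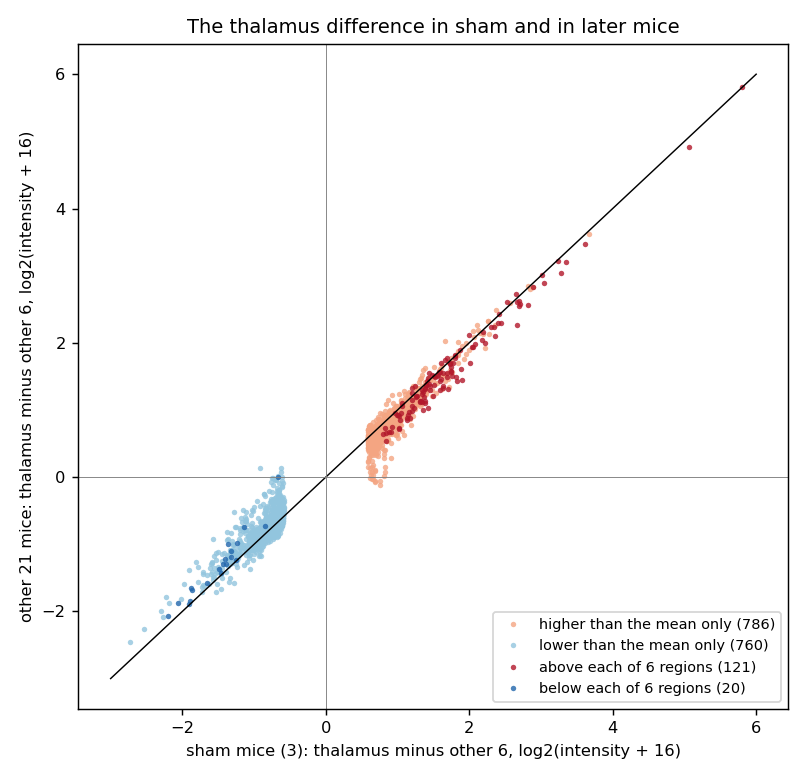
Log2 difference of thalamus from the mean of the other 6 regions in the 3 sham mice (horizontal) and in the 21 later mice (vertical), for the 1687 probe sets called in sham mice. Each point is 1 probe set, dark colours mark those above or below each of 6 regions, and the line marks equal values. The points follow the line, with smaller later differences for many probe sets just past the 1.5-fold threshold.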

How the data were processed

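The authors deposited linear signal intensities of 45101 probe sets of the Mouse Genome 430 2.0 array. After trimming 2% of values at either end, each array's mean was 125. The submitters' notes name GCOS 1.3, the study's methods describe GCRMA with quantile normalization, which the values do not show, and the step that made these intensities was not given in the sources used here. Region, time and replicate were taken from the labels. The 64 control probe sets were left out. Probe sets were named from the platform annotation: 34945 name 1 symbol, 932 several and 9160 none. Some genes of the lists were not analysed here.

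Values were taken as log2(intensity + 16) and fitted under R 4.3.3 by the package limma 3.58.1, with 7 region means and the replicate number as a fixed block, over the 21 sham arrays (12 residual and 3.2 prior degrees of freedom). Adjusted p values are Benjamini-Hochberg values over 45037 probe sets. Contrasts were thalamus against the mean of the other 6 regions and against each. All 7 comparisons share the 3 thalamus arrays. In the 24 mice, thalamus minus the mean of the others was also taken within each mouse, and its mean over 21 mice and its change over 8 conditions were tested. Neither an array nor a value was left out. Between 24.4% and 30.2% of the values of a sham array were below 16, the thalamus arrays correlated with each other at r of at least 0.9831, and 1 midbrain array correlated better with a pons and medulla array (0.9783) than with the least like midbrain array (0.9761). The precision is limited by 3 arrays a region. The labels do not state that arrays of the same number come from 1 mouse, and the methods state 24 mice with 7 regions each. No scan date or other batch was in the labels used here.

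The members and the gene lists were chosen with earlier results of these data known, so a list's count is no independent evidence. Genes named are the 20 largest differences above each region, the 8 most negative below each, all thalamus markers, up to 4 called members and 1 uncalled member of each other list, the 5 largest each way against midbrain and the 5 smallest p of change, beside those said to be chosen later and members named to fill in a count. The fit was tested on simulated data for thalamus against the mean of the other 6 over 45037 probe sets. Changed probe sets, here and for the other 21 mice below, were drawn only from those with a mean sham intensity above 50. How often dimmer ones are called was not tested. The fit called 52% of 50 probe sets changed by 1.5-fold, 98% at 2-fold and 100% at 3-fold and 4-fold. The rule for each region called 12%, 82%, 94% and 96%. Among the unchanged probe sets the fit made 3 false calls and the rule for each region 0. For the other 21 mice the calls were 36% at 1.5-fold and 100% at the larger sizes, and the F-test called 38%, 92%, 96% and 100%. Among the unchanged probe sets the calls in the other 21 mice held 0 false ones, and the F-test made 12. These F-test shares are for differences set in the other 21 mice together. How often the F-test calls a difference that changes in only some of the later conditions was not tested. Figures were drawn with matplotlib 3.10.9.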

Additional observations from a re-analysis of the deposited data

How the results depend on the processing

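The counts of called probe sets and the differences of the named genes were computed again under alternatives of scaling, offset, block, test, threshold and arrays. With an offset of 1 in place of 16, 33 probe sets were below each region, and with 32 there were 12. In the later mice an offset of 1 gave 1335 higher and 1249 lower, and 1 probe set with a changed difference. At 2-fold, 317 were higher, 203 lower, 54 above each region and 5 below each, and against midbrain 186 were higher and 110 lower. Without a fold threshold, 2418 were higher, 2029 lower and 44 below each, and 627 were lower than midbrain. Leaving out 1 replicate number or 1 thalamus array at a time gave 66 to 106 probe sets above each region, 7 to 20 below each, 285 to 491 higher than midbrain and 151 to 302 lower, with the fewest calls where all 7 arrays of a number were gone and fewer samples entered the fit. Among called genes, those that changed sign were Drd1 (0.19 without striatum), Hoxb5 (0.02 without pons and medulla), and, on a second probe set, Dcn (0.12), Gabrd (−0.15) and Chrna3 (−0.10). Of the 147 named genes 81 kept their call under all alternatives run for them. The 30 of 32 thalamus markers called higher became 24 among probe sets brighter than the median, 25 at 2-fold and 29 without replicate 2 or 3, and of 22 with a second probe set 21 were higher on it. Quantile scaling and centring moved the median of all probe sets by −0.001 and 0.004.

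The methods' t-test gave 875 higher and 737 lower after Benjamini-Hochberg adjustment, and 947 and 853 at an unadjusted p under 0.05, all at 1.5-fold or more. Same-numbered sham arrays had median correlations of their deviations of 0.067, 0.0794 and 0.0479 by number, with 21 of 63 pairs over 0.1, and differently numbered arrays a median of −0.0388, with 2 of 126 over 0.1. Not every same-numbered pair was over 0.1, so these correlations do not show that the numbers pair the arrays. That same-numbered pairs lay higher is a hint only. The replicate block and the within-mouse differences used the numbers as pairs, which is an assumption. Without the replicate block 898 were higher, 765 lower, 114 above each region and 19 below each, 531 were higher than midbrain and 335 lower, and 894, 760 and 114 probe sets were shared with the calls of the first 3 counts. Array signal limits the dim genes: 3312 of 18193 genes had a thalamus mean below 16.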
